A study of Homo sapiens with 4 samples.

Results

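Solute carriers are membrane proteins that move small molecules across the plasma membrane and the membranes of organelles, and their genes carry the prefix SLC, a family number and a member number. The transcripts of 166 expressed solute carrier genes were compared between PANC-1 cells transfected with small interfering RNA (siRNA) against SIRT1 and Control cells. The members were all genes named SLC, a number, the letter A and a number whose 4 values averaged 2 FPKM or more, where FPKM gives fragments relative to transcript length in kilobases and to library size. Of the 16878 genes in each table, 302 carry such a name, and 129 of these were under 2 FPKM, 16 of the 302 being at 0 in all libraries. A further 7 genes were left out by name (SLC2A1, SLC2A3, SLC16A3, SLC7A11, SLC7A5, SLC3A2 and SLC22A18). Members were thus selected on a mean that pools both groups, so a change can bring a gene over the limit. Of the 166, 7 had a Control mean under 2 FPKM and 3 an siSIRT1 mean under 2 FPKM. Just inside the limit were SLC5A10 with a mean of 2.00 FPKM, SLC4A5 with 2.08 FPKM and SLC9A4 with 2.16 FPKM, and just outside it were SLC43A1 with 1.99 FPKM and SLC25A18 with 1.98 FPKM.

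PANC-1 is an established cell line from a human pancreatic ductal carcinoma. The series holds 2 Control libraries and 2 siSIRT1 libraries, numbered 1 and 2 in each group, and RNA was taken 48 h after transfection. What the Control cells received is not given in the sources used here, and neither is whether the libraries of a group came from separate cultures, so that p-values measure the spread between these libraries, which may be technical. SIRT1 is an NAD-dependent deacetylase of histones and other proteins, and the comparison asks which transcripts differ when its mRNA is lowered.

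Transporters work by a few modes: facilitated carriers let a substrate run down its gradient, cotransporters use the gradient of sodium, protons or chloride to pull a substrate in, and exchangers trade one substrate for another. In carcinoma cells they supply glutamine and other amino acids, sugars, nucleosides, phosphate and metals, and they set pH and cell volume. Mitochondrial carriers of the SLC25 family link the cytosol with the respiratory chain, and other families serve the lysosome, the endoplasmic reticulum and the Golgi.

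The siRNA is shown first, since its sequence defines the treatment. The 19 bases are those the study lists for siSIRT1, followed by their reverse complement, in which capitals mark bases 2 to 8, the seed through which an siRNA can pair with other transcripts.
siSIRT1, strand as listed: gugucaugguuccuuugca
siSIRT1, reverse complement: uGCAAAGGaaccaugacac

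SIRT1 itself was at 10.46 and 10.25 FPKM in Control against 1.8 and 2.05 FPKM in siSIRT1. Its log2 fold change was -1.96 (standard error 0.11), with an adjusted p of 1.33e-05 by limma. Depths estimated from the values were 8700000 to 9120000 reads per library. All adjusted p-values below come from the same limma fit over 12191 genes with Benjamini-Hochberg adjustment, and fold changes are differences of log2(FPKM + 1), so that the change of weakly expressed genes is understated. Among markers of ductal epithelium, KRT8, KRT18 and KRT19 were between 313 and 2745 FPKM in every library. Much lower were KRT7 at 2.89 to 4.04 FPKM and EPCAM at 5.34 to 11.21 FPKM. Marker genes of acinar, endocrine and endothelial cells were all under 1 FPKM where they were listed, and of the blood markers PTPRC was at 0.97 to 1.29 FPKM and CD68 at 39.1 to 63.0 FPKM. The summed ductal markers were at 3972 to 4194 FPKM in Control and 4674 to 5067 FPKM in siSIRT1, and the part of these marker differences in the results was not tested. In bulk RNA, fewer cells of a type and less RNA per cell cannot be told apart.

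Members spanned 2.00 to 324 FPKM in mean level, with a median of 11.6 FPKM. A mean of at least 10 FPKM was reached by 94 members, and 9 reached 100 FPKM. The 2 members above 200 FPKM were SLC25A5, the main ADP/ATP carrier of the inner mitochondrial membrane, and SLC29A1, the nucleoside carrier ENT1 that also takes up gemcitabine. Together the members held 1.13% and 1.13% of the summed FPKM in Control and 0.946% and 0.988% in siSIRT1. Their summed level was 4526 and 4495 FPKM in Control against 4034 and 4035 FPKM in siSIRT1, so that the groups did not overlap. Without the SLC25 genes the sum of the other 129 members was 3422 and 3417 FPKM in Control against 2789 and 2808 FPKM in siSIRT1.

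At an adjusted p under 0.05, 36 members rose and 44 fell in siSIRT1, 80 in all, and 86 were not called. Among all tested genes 24.0% were called higher and 13.1% lower, 37.1% in all, and among genes averaging 2 FPKM or more these shares were 25.2%, 13.5% and 38.6%. The counts of the groups and smaller sets below are to be read against these shares. Leaving out the 10 members with 1 group mean under 2 FPKM, which passed the limit through the group where they were higher, 30 of 156 rose and 42 fell. With no filter on low values 26 of the 166 were higher and 34 lower, where 2255 of 16453 tested genes were higher and 1276 lower. Without either Control library the rises were fewer, both among the 166 and over all tested genes. The members were called higher in 21.7% and lower in 26.5% of cases. Their median log2 fold change was -0.03, against 0.07 over all tested genes. How the calls divided by direction depended on scaling. Under median-of-ratios scaling 28 members were higher and 51 lower, where 16.7% of all tested genes were higher and 16.7% lower (33.4% in all), and rises made up 35.4% of the calls in place of 45.0%. Control and siSIRT1 values were fully apart in 125 members (75.3%), where 69.0% of all tested genes had groups that did not overlap. A change of at least 1 on the log2 scale was called upwards in 1 member and downwards in 7 members, against 1.12% and 1.40% of all tested genes. The SD of the log2 difference over the members was 0.14 for the Control pair, 0.19 for the siSIRT1 pair and 0.47 to 0.53 for the 4 pairs of unlike libraries.

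**Figure D1:**
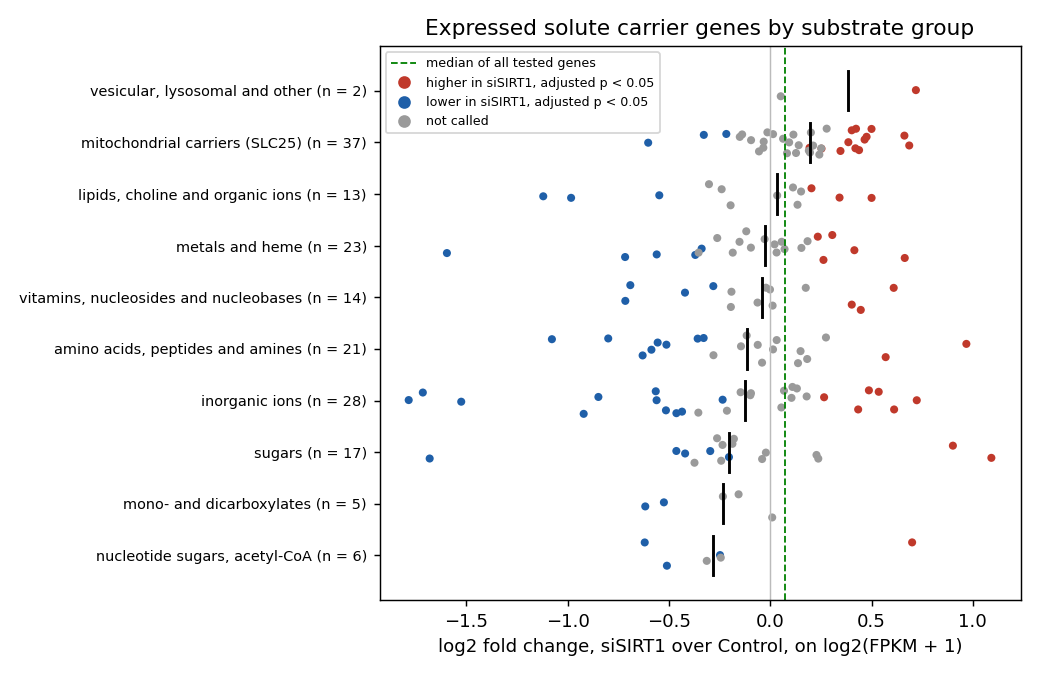
Log2 fold change of each of the 166 members (points, red for called higher, blue for called lower, grey for not called), siSIRT1 over Control, by substrate group, with the group median as a black bar and the median of all tested genes as a dashed line. Falls past -1.5 were seen among inorganic ion, sugar and metal carriers, and the mitochondrial carriers had a median of 0.19.

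The 28 carriers of inorganic ions (protons, sodium, chloride, bicarbonate, phosphate and sulfate) held 3 of the 5 falls past -1.5. Of these 28 members 6 rose (21.4%), 11 fell (39.3%) and 11 were not called, where 24.0% of all tested genes rose and 13.1% fell. The median log2 fold change was -0.12, and the rises were fewer without either Control library, as they were over all tested genes. Their summed level was 745 and 750 FPKM in Control against 548 and 561 FPKM in siSIRT1. SLC4A11, a proton-permeable membrane protein of the bicarbonate transporter family (GRCh37 chromosome 20, 3208068 to 3219836, minus strand), had 92.12 and 92.64 FPKM in Control against 27.61 and 24.70 FPKM in siSIRT1. It fell by 71.7%, with a log2 fold change of -1.78 (standard error 0.07, adjusted p 1.96e-06), the largest fall among the members on the log2(FPKM + 1) scale. In percent, SLC2A12 and SLC39A10 fell further, and with pseudocount 0.1 SLC2A12 had the lower value (-2.08 against -1.82 for SLC4A11). SLC4A7, the sodium-bicarbonate cotransporter NBCn1 that brings bicarbonate into the cell (GRCh37 chromosome 3, 27414214 to 27525875, minus strand), had 33.63 and 36.69 FPKM in Control against 7.81 and 12.76 FPKM in siSIRT1. The siSIRT1 libraries differed from each other for this gene, and both were below both Control libraries. The fitted log2 change was -1.71 (standard error 0.17, adjusted p 0.000196). The chloride-bicarbonate exchanger SLC4A2 (AE2), which has the highest level of the bicarbonate carriers, was at 139.37 and 136.79 FPKM in Control against 153.09 and 145.14 FPKM in siSIRT1 and was not called (log2 fold change 0.11, standard error 0.06, adjusted p 0.174). SLC4A3, SLC4A5 and SLC4A8 were not called either, with adjusted p-values of 0.650, 0.0588 and 0.177. SLC4A5, at 2.37 and 2.55 FPKM in Control against 1.72 and 1.69 FPKM in siSIRT1, is one of the members that other scalings called lower. MTHFD2 on the other strand overlaps 20.8% of its transcript and was called lower too (log2 fold change -0.50). Another gene model on the same strand overlaps 58.9%, so the value of SLC4A5 is uncertain.

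Cation-chloride cotransporters set intracellular chloride and cell volume, and 4 of the 5 members fell while 1 rose. SLC12A2, the inward cotransporter NKCC1 (GRCh37 chromosome 5, 127419458 to 127525369, plus strand), had 20.01 and 21.93 FPKM in Control against 5.65 and 7.75 FPKM in siSIRT1 and fell by 68.0% with a log2 fold change of -1.52 (standard error 0.13, adjusted p 8.42e-05). Among the outward potassium-chloride cotransporters, SLC12A7 (KCC4) was at 215.65 and 209.69 FPKM in Control against 147.00 and 150.13 FPKM in siSIRT1 and fell, with a log2 fold change of -0.51 (standard error 0.06, adjusted p 0.000272). The related SLC12A4 (KCC1) rose from 8.94 ± 0.332 to 12.9 ± 0.0849 FPKM (mean ± SD, n = 2 in each group, as in all means below), with a log2 change of 0.49 at an adjusted p of 0.00313. LCAT on the same strand overlaps 3.67% of the SLC12A4 transcript and was called higher too (log2 fold change 0.70). SLC12A9 of the same family had a smaller difference of -0.23 (adjusted p 0.0432), which was lost without any 1 of the 4 libraries, with adjusted p-values of 0.0567 to 0.244.

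Sodium/proton exchangers export protons at the plasma membrane or set the pH of organelles, and 4 of 8 rose, 2 fell and 2 were not called. The exchanger of the trans-Golgi network SLC9A7 (GRCh37 chromosome X, 46458686 to 46618553, minus strand) had 21.08 and 22.97 FPKM in Control against 10.26 and 12.12 FPKM in siSIRT1 and had the largest difference, a log2 fold change of -0.92 (standard error 0.10, adjusted p 0.000238). SLC9A3, an apical exchanger of absorptive epithelia, fell from 3.83 ± 0.587 to 2.25 ± 0.262 FPKM, and its call was lost without Control replicate 2 (adjusted p 0.12) or siSIRT1 replicate 1 (adjusted p 0.0587). The weakly expressed SLC9A2, SLC9A4 and SLC9A5 were called higher, and all 3 had a Control mean under 2 FPKM and so passed the limit through siSIRT1. SLC9A4 was at 1.43 and 1.55 FPKM in Control against 2.46 and 3.18 FPKM in siSIRT1 (log2 fold change 0.61, standard error 0.14, adjusted p 0.0106). SLC9A2 was at 1.52 and 1.71 FPKM in Control against 2.65 and 2.93 FPKM in siSIRT1 (log2 fold change 0.54, standard error 0.13, adjusted p 0.0126). Without Control replicate 1 the adjusted p was 0.0547 for SLC9A4, 0.0874 for SLC9A2 and 0.101 for SLC9A5, which rose from 1.83 ± 0.0636 to 2.83 ± 0.0849 FPKM and also lost its call without Control replicate 2 (0.142) or siSIRT1 replicate 1 (0.0682). The Golgi exchanger SLC9A8 was not called, with a log2 fold change of -0.10.

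Among the remaining ion carriers, SLC26A2, the sulfate transporter that feeds proteoglycan sulfation, was at 38.59 and 44.19 FPKM in Control against 18.88 and 26.78 FPKM in siSIRT1. Both siSIRT1 values lay below both Control values, with a log2 fold change of -0.85 (standard error 0.14, adjusted p 0.00209). The sodium-phosphate cotransporter SLC20A1 (PiT-1) fell from 41.2 ± 1.29 to 30.2 ± 1.59 FPKM, with a log2 change of -0.44 at an adjusted p of 0.00165. SLC24A1, a potassium-dependent sodium/calcium exchanger, fell from 6.94 ± 0.212 to 4.43 ± 1.02 FPKM, and without Control replicate 2 its adjusted p was 0.0634. SLC26A10 was at 3.90 and 5.43 FPKM in Control against 9.03 and 7.56 FPKM in siSIRT1 (log2 fold change 0.72, standard error 0.15, adjusted p 0.00600). The current RefSeq table names SLC26A10 as a pseudogene. B4GALNT1, a gene on the other strand that overlaps 38% of the SLC26A10 transcript, was called higher too (log2 fold change 0.54). Another gene model on the same strand overlaps 82.85%, so the value of SLC26A10 is uncertain. The adjusted p of SLC26A10 was 0.0553 with no filter on low values. SLC26A1, SLC26A6, SLC26A11, SLC24A5 and SLC8A1 were not called, with log2 fold changes of -0.15 to 0.18.

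**Figure D2:**
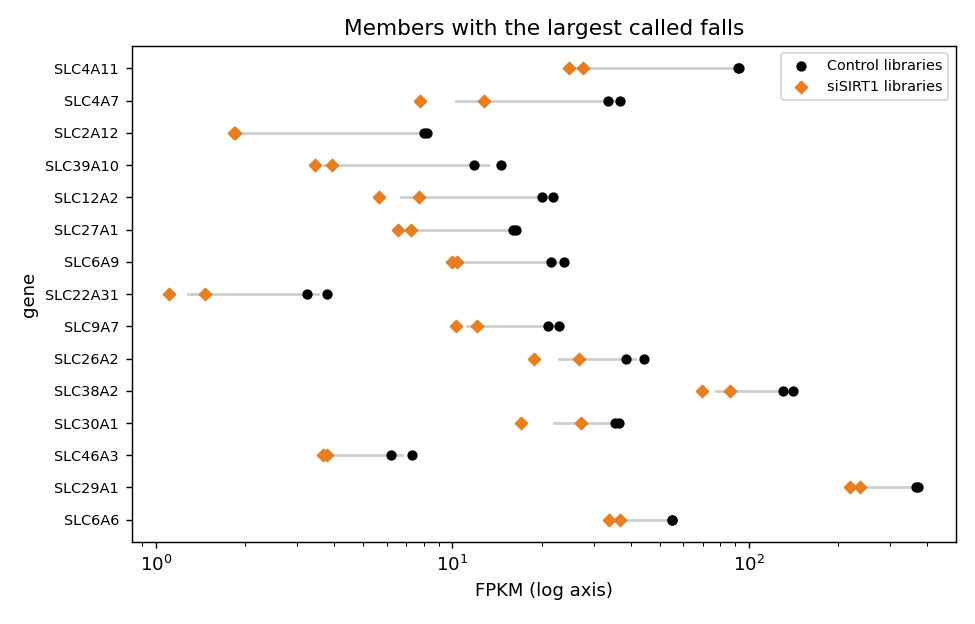
FPKM in each library (log axis) for the 15 members with the largest called falls, Control libraries as black circles and siSIRT1 libraries as orange diamonds, with a grey line between the group means. The 15 were drawn from called members whose groups did not overlap. That both siSIRT1 libraries lie to the left of both Control libraries therefore follows from the choice.

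Carriers of amino acids, peptides and amines formed a group of 21 members, with a median log2 fold change of -0.12. Of these 2 rose (9.52%), 8 fell (38.1%) and 11 were not called, where 24.0% of all tested genes rose and 13.1% fell. The 8 that fell include the 5 members of the group with the highest levels. The summed level of the 21 went from 771 FPKM in each Control library to 569 and 598 FPKM in siSIRT1. SLC1A5, the sodium-coupled glutamine carrier ASCT2 (GRCh37 chromosome 19, 47278140 to 47291851, minus strand), had 193.30 and 182.30 FPKM in Control against 149.85 and 142.73 FPKM in siSIRT1. Its log2 fold change was -0.36 (standard error 0.06, adjusted p 0.00231), and without Control replicate 1 the adjusted p was 0.0556. SLC38A2 (SNAT2), which takes up glutamine, alanine and other small neutral amino acids (GRCh37 chromosome 12, 46751971 to 46766556, minus strand), had 130.11 and 140.77 FPKM in Control against 69.45 and 86.11 FPKM in siSIRT1, with a log2 fold change of -0.80 (standard error 0.10, adjusted p 0.000441). Its relative SLC38A1 (SNAT1) fell from 74.6 ± 2.24 to 49.5 ± 6.25 FPKM, a log2 change of -0.59. SLC38A10 fell from 85.4 ± 2.34 to 67.8 ± 0.849 FPKM, a log2 change of -0.33, and its adjusted p was 0.0538 without Control replicate 1. The serine and alanine carrier SLC1A4 (ASCT1) fell from 35.1 ± 3.08 to 23.5 ± 0.0990 FPKM, a log2 change of -0.56, and the arginine and lysine carrier SLC7A1 (CAT1) from 42.1 ± 0.530 to 29.3 ± 1.55 FPKM, a log2 change of -0.51.

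Of the sodium- and chloride-coupled SLC6 members, the glycine transporter SLC6A9 (GlyT1, GRCh37 chromosome 1, 44462155 to 44497134, minus strand) had the largest fall of the amino acid group. It was at 23.75 and 21.46 FPKM in Control against 10.35 and 10 FPKM in siSIRT1 and fell by 55.0%, with a log2 fold change of -1.08 (standard error 0.09, adjusted p 5.86e-05). The taurine transporter SLC6A6 was at 55.16 and 55.19 FPKM in Control against 33.81 and 36.87 FPKM in siSIRT1 and fell as well (log2 fold change -0.63, standard error 0.07, adjusted p 0.000239). The creatine transporter SLC6A8 was at 42.32 and 42.43 FPKM in Control against 48.22 and 45.23 FPKM in siSIRT1 and was not called (adjusted p 0.127), nor was SLC6A17 (adjusted p 0.928).

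In the other direction, SLC7A10 (Asc-1), a carrier of small neutral amino acids including D-serine, was at 1.63 and 1.13 FPKM in Control against 3.41 and 3.86 FPKM in siSIRT1. These values rest on about 27 and 19 reads in Control against 55 and 65 reads in siSIRT1, and the gene passed the limit through siSIRT1. The log2 fold change was 0.97 (standard error 0.15, adjusted p 0.00140). SLC7A6 (y+LAT2) was at 10.94 and 12.48 FPKM in Control against 16.22 and 19.59 FPKM in siSIRT1, a log2 fold change of 0.57 (standard error 0.11, adjusted p 0.00413). Both overlap another called gene on the other strand, SLC7A6 over 53.9% of its transcript with SLC7A6OS (log2 fold change 0.52) and SLC7A10 over 10.3% with LRP3 (log2 fold change 0.71), and whether the counting used strand is not given in the sources used here. Amino acid carriers of the lysosome were not called. SLC38A9, which relays lysosomal arginine to mTORC1, was at 8.84 and 8.22 FPKM in Control against 7.44 and 8.15 FPKM in siSIRT1, SLC38A7 had a log2 fold change of -0.06, SLC36A1 (PAT1) of 0.18 and SLC15A4 of -0.28 with an adjusted p of 0.0565. SLC15A4 is called lower under median-of-ratios scaling (adjusted p 0.0208). SLC43A2, SLC36A2, SLC36A4, SLC38A6 and SLC3A1, all under 11 FPKM, were not called.

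Among 17 members placed with sugar carriers by family, 2 rose, 5 fell and 10 were not called, with a median log2 fold change of -0.20, and without Control replicate 2 the falls numbered 2. The facilitated hexose carriers of the SLC2 family went both ways. SLC2A8 (GLUT8), a hexose carrier of intracellular membranes (GRCh37 chromosome 9, 130159448 to 130170177, plus strand), had 18.60 and 17.75 FPKM in Control against 42.39 and 37.45 FPKM in siSIRT1, and both siSIRT1 libraries were far above both Control libraries. Its log2 fold change of 1.09 (standard error 0.08, adjusted p 3.87e-05) was the largest rise among the members with pseudocount 1. With pseudocount 0.1, SLC7A10 (1.35) and SLC37A1 (1.15) exceeded SLC2A8 (1.13). SLC2A12 (GLUT12, GRCh37 chromosome 6, 134308719 to 134373762, minus strand) had 8.24 and 8 FPKM in Control against 1.85 and 1.84 FPKM in siSIRT1. The siSIRT1 libraries were close to each other for this gene, well below both Control libraries, and the log2 fold change was -1.68 (standard error 0.11, adjusted p 2.52e-05). It fell by 77.3%, and its siSIRT1 mean alone was under 2 FPKM. The transcript of SLC2A12 overlaps that of TBPL1 on the other strand over 51.2% of its length, and TBPL1 was not called (log2 fold change -0.22). SLC2A4, the insulin-responsive GLUT4, was at 2.95 and 3.95 FPKM in Control against 2.34 and 2.08 FPKM in siSIRT1 (log2 fold change -0.46, adjusted p 0.0375), and the call was lost without Control replicate 2 (adjusted p 0.295), without siSIRT1 replicate 1 (0.0661) and without siSIRT1 replicate 2 (0.118). SLC2A6 and SLC2A11 were not called, with adjusted p-values of 0.0602 and 0.796.

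SLC50A1 (SWEET1), a sugar carrier with the highest level of the group, was at 95.49 and 103.73 FPKM in Control against 85.30 and 76.69 FPKM in siSIRT1 (log2 fold change -0.30, standard error 0.07, adjusted p 0.0127). Without Control replicate 2 its adjusted p was 0.149. SLC45A1 fell from 25.3 ± 0.523 to 18.7 ± 0.948 FPKM, a log2 change of -0.42. Of the sugar phosphate exchangers, SLC37A1 was at 2.01 and 2.17 FPKM in Control against 4.76 and 4.78 FPKM in siSIRT1 and rose (log2 fold change 0.90, standard error 0.12, adjusted p 0.000682). The glucose 6-phosphate translocase SLC37A4, which serves glucose release from the endoplasmic reticulum, had a small called difference of -0.20 (adjusted p 0.0463), lost without Control replicate 1 (0.371), without Control replicate 2 (0.101) and without siSIRT1 replicate 2 (0.112). Of the 4 SLC5 members placed here none was called by limma, at an adjusted p of 0.117 for the myo-inositol carrier SLC5A3, 0.224 for SLC5A2, 0.167 for SLC5A5, an iodide carrier that falls here by its family, and 0.404 for SLC5A10, and 0 of the 4 had an unadjusted p under 0.05. SLC5A3 was at 22.99 and 23.86 FPKM in Control against 14.15 and 22.45 FPKM in siSIRT1, so that siSIRT1 replicate 2 lay close to Control. SLC37A2, SLC37A3, SLC45A3 and SLC45A4 were not called.

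**Figure D3:**
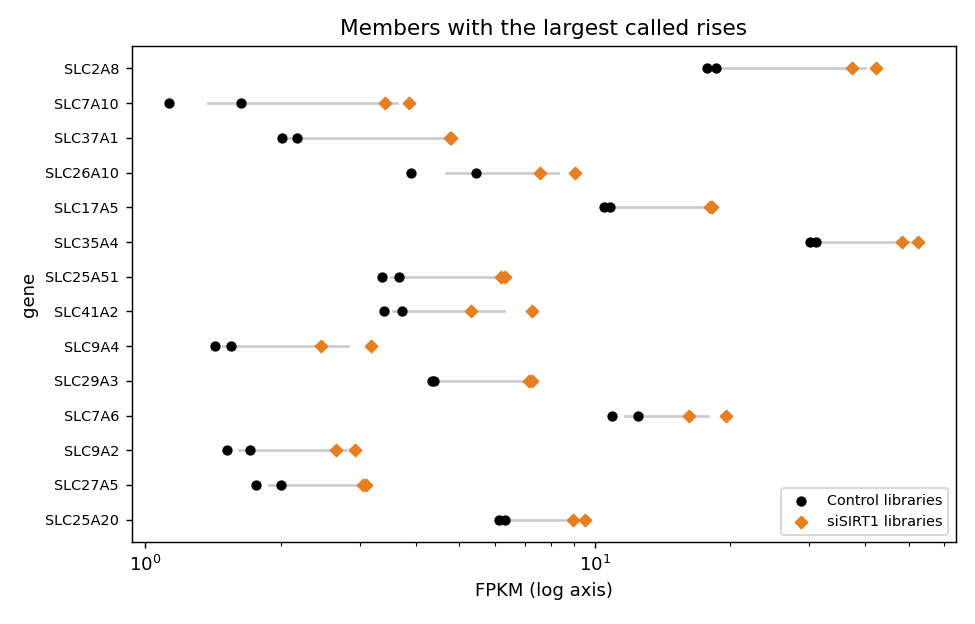
FPKM in each library (log axis) for 14 of the 15 members with the largest called rises, Control libraries as black circles and siSIRT1 libraries as orange diamonds, with a grey line between the group means. SLC2A8 and SLC35A4 are the 2 members of this set that exceed 30 FPKM in siSIRT1. The 15 were drawn from called members whose groups did not overlap.

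Metal and heme carriers numbered 23, of which 5 rose, 5 fell and 13 were not called, with a median log2 fold change of -0.03. Under median-of-ratios scaling 2 were higher and 5 lower, and without Control replicate 1 or Control replicate 2 the rises numbered 2 and 3. ZIP proteins (SLC39) bring zinc or manganese into the cytosol and ZnT proteins (SLC30) move zinc out of it. SLC39A10 (ZIP10), an importer of the plasma membrane (GRCh37 chromosome 2, 196521950 to 196602424, plus strand), had 11.84 and 14.57 FPKM in Control against 3.45 and 3.92 FPKM in siSIRT1 and fell by 72.1% (log2 fold change -1.60, standard error 0.12, adjusted p 5.46e-05). SLC39A1 (ZIP1), the most abundant of the group, was at 132.53 and 131.53 FPKM in Control against 103.91 and 100.02 FPKM in siSIRT1 (log2 fold change -0.37, standard error 0.06, adjusted p 0.00137). Another gene model on the same strand overlaps 95.9% of the SLC39A1 transcript. SLC39A7 (ZIP7), which releases zinc from the endoplasmic reticulum, fell from 83.7 ± 1.64 to 66.2 ± 6.89 FPKM, and its adjusted p was 0.065 without Control replicate 2. SLC39A11 fell from 12 ± 0.898 to 7.80 ± 0.608 FPKM, a log2 change of -0.56. SLC39A14 (ZIP14), which also carries iron and manganese, was at 44.46 and 42.58 FPKM in Control against 48.71 and 56.37 FPKM in siSIRT1, a called rise of 0.26 (adjusted p 0.0303) that had an adjusted p of 0.117 under median-of-ratios scaling, and of 0.0894, 0.179 and 0.0883 without Control replicate 1, Control replicate 2 and siSIRT1 replicate 2. The other 5 ZIP members, SLC39A3, SLC39A4, SLC39A6, SLC39A9 and SLC39A13, were not called.

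Of 6 ZnT members 1 was called. SLC30A1 (ZnT1), the zinc exporter of the plasma membrane (GRCh37 chromosome 1, 211744910 to 211752503, minus strand), had 36.47 and 35.38 FPKM in Control against 16.99 and 27.08 FPKM in siSIRT1. The siSIRT1 libraries were far apart, and both were below Control (log2 fold change -0.72, standard error 0.17, adjusted p 0.0109). The adjusted p was 0.0974 with no filter on low values. SLC30A1 is a known target of the zinc-sensing factor MTF1, so its promoter is shown, with matches to TGCNCNC on either strand in capitals (RefSeq, GRCh38.p14, chr1:211579112-211579411, minus strand, 250 bases before to 50 after the start).
SLC30A1 promoter: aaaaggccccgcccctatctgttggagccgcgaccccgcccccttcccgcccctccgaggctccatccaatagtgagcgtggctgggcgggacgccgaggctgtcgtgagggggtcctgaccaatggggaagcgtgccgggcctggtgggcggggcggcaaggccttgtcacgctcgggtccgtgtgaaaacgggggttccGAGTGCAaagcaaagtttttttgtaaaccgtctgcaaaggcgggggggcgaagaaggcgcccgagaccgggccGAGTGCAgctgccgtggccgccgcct
This window holds 2 matches, and 61.9% of the members' promoters and 62.5% of all promoters of this length hold at least 1. Exporters into the secretory pathway SLC30A5, SLC30A6 and SLC30A7 were not called, nor were SLC30A4 and SLC30A9, with log2 fold changes of -0.35 to 0.07.

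All 3 magnesium carriers were called higher, where 24.0% of all tested genes were, and 2 of the 3 stayed called under median-of-ratios scaling. SLC41A2 was at 3.73 and 3.39 FPKM in Control against 5.31 and 7.26 FPKM in siSIRT1 (log2 fold change 0.66, standard error 0.15, adjusted p 0.00797, and 0.0579 with no filter on low values), SLC41A3 rose from 12.9 ± 0.460 to 17.6 ± 0.516 FPKM (adjusted p 0.00433), and SLC41A1 was at 14.28 and 14.26 FPKM in Control against 16.72 and 17.22 FPKM in siSIRT1, a difference of 0.23 (adjusted p 0.0427) that median-of-ratios scaling left at 0.162. Without any 1 of the 4 libraries the call of SLC41A1 was lost, at adjusted p-values of 0.0522 to 0.214. SLC48A1, which brings heme from endosomes into the cytosol, was at 14.02 and 15.67 FPKM in Control against 19.44 and 17.73 FPKM in siSIRT1 (log2 fold change 0.31, adjusted p 0.0262), and its adjusted p was 0.0889 under the same scaling, 0.22 without Control replicate 1 and 0.0979 without siSIRT1 replicate 1. The iron carrier SLC11A2 (DMT1) was at 15.79 and 16.94 FPKM in Control against 17.02 and 20.58 FPKM in siSIRT1 and the copper carrier SLC31A1 (CTR1) at 16.43 and 18.41 FPKM in Control against 15.44 and 15.68 FPKM in siSIRT1, and neither was called (adjusted p 0.184 and 0.195). SLC31A2 was not called.

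The SLC25 family of mitochondrial carriers was the largest, with 37 members, and its counts lay on the side of rises. Of these 37 genes 13 rose (35.1%), 3 fell (8.11%) and 21 were not called, where 24.0% of all tested genes rose and 13.1% fell. Called SLC25 rises and falls were fewer without either Control library, as they were over all tested genes. With length adjustment 12 SLC25 members were higher and 7 lower, where 2288 of all 12191 tested genes were higher and 2389 lower. The median log2 fold change was 0.19 against 0.07 over all tested genes, and -0.14 over the 129 other members, of which 23 rose and 41 fell. Under median-of-ratios scaling 10 SLC25 members were higher and 3 lower, with a median of 0.11 against 0.00 over all tested genes. The summed SLC25 level was 1104 and 1078 FPKM in Control against 1244 and 1228 FPKM in siSIRT1.

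**Figure D4:**
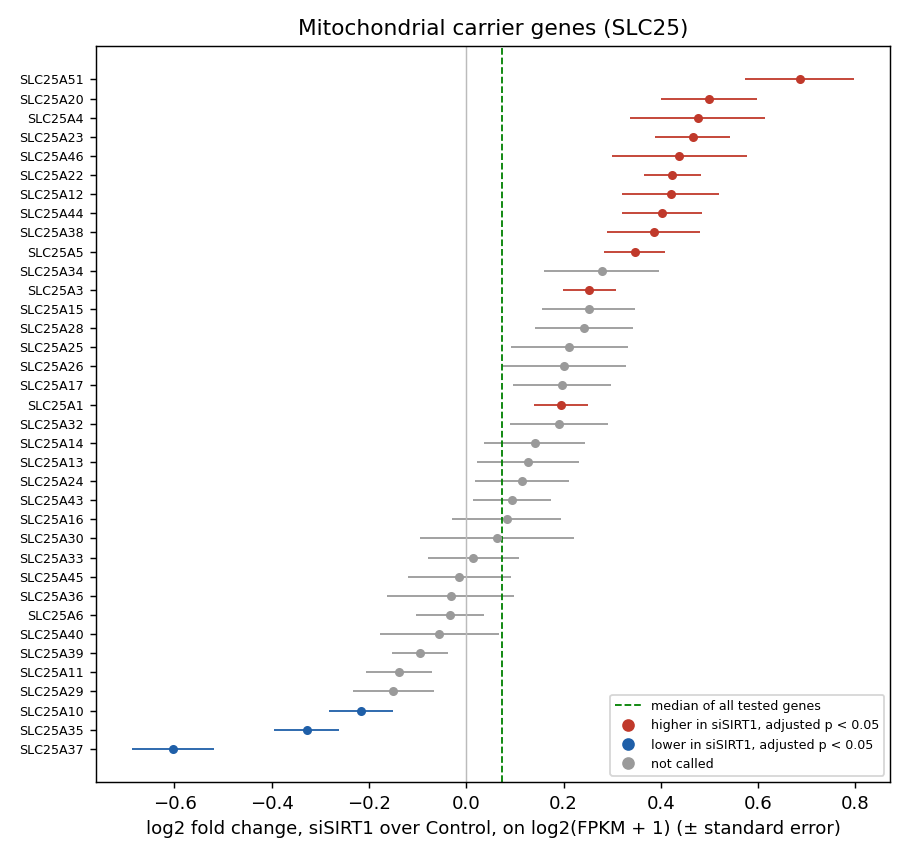
Log2 fold change with its standard error for 36 of the 37 SLC25 members, siSIRT1 over Control, ordered by size (red called higher, blue called lower, grey not called). The dashed line is the median of all tested genes, and SLC25A37 is the lowest and SLC25A51 the highest point.

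Carriers of adenine nucleotides and phosphate supply ATP synthesis, and 4 of 8 rose with none called lower. SLC25A5 (ANT2) reached 296.39 and 274.68 FPKM in Control against 364.60 and 361.64 FPKM in siSIRT1, the highest level of any member (log2 fold change 0.35, standard error 0.06, adjusted p 0.00315), and without Control replicate 2 its adjusted p was 0.11. SLC25A6 (ANT3) was at 116.58 and 106.63 FPKM in Control against 113.90 and 104.08 FPKM in siSIRT1 and was not called (log2 fold change -0.03, standard error 0.07, adjusted p 0.740). SLC25A4 (ANT1), the form of heart and muscle, was at 2.08 and 1.69 FPKM in Control against 2.76 and 3.26 FPKM in siSIRT1 and passed the limit through siSIRT1, called higher at an adjusted p of 0.0274 that was 0.185 without Control replicate 2 and 0.0979 without siSIRT1 replicate 2. SLC25A5 and SLC25A6 have processed pseudogenes of similar sequence that could take or lend reads, which makes their values uncertain. The phosphate carrier SLC25A3 was at 132.49 and 130.77 FPKM in Control against 156.38 and 157.72 FPKM in siSIRT1 (log2 fold change 0.25, standard error 0.06, adjusted p 0.00744). Under median-of-ratios scaling its adjusted p was 0.0747, and it was 0.1 without Control replicate 1 and 0.129 without Control replicate 2. The calcium-regulated ATP-Mg/phosphate carrier SLC25A23 rose from 15.3 ± 0.262 to 21.6 ± 1.05 FPKM, a log2 change of 0.47, while SLC25A24 and SLC25A25 of the same kind were not called (log2 fold changes 0.11 and 0.21). SLC25A16 was not called.

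Among 9 carriers of amino acids and carnitine 5 rose and 4 were not called. The glutamate carrier SLC25A22 rose from 47.1 ± 0.438 to 63.6 ± 0.226 FPKM, a log2 change of 0.42 (adjusted p 0.000840). SLC25A12 and SLC25A13 are the aspartate/glutamate carriers of the malate-aspartate shuttle. SLC25A12 rose from 6.25 ± 0.233 to 8.70 ± 0.262 FPKM (adjusted p 0.0108, and 0.0515 and 0.0885 without Control replicates 1 and 2), and SLC25A13 was at 12.30 and 12.46 FPKM in Control against 12.30 and 15.06 FPKM in siSIRT1 with an adjusted p of 0.379. The carnitine/acylcarnitine carrier SLC25A20, which brings fatty acids to oxidation, was at 6.32 and 6.13 FPKM in Control against 9.51 and 8.93 FPKM in siSIRT1 (log2 fold change 0.50, standard error 0.10, adjusted p 0.00476). SLC25A44, a carrier of branched-chain amino acids, rose from 15.4 ± 0.332 to 20.7 ± 1.52 FPKM and SLC25A38, the glycine carrier of heme synthesis, from 10.4 ± 0.940 to 13.9 ± 0.643 FPKM. Without Control replicate 1 the adjusted p of SLC25A38 was 0.133, and without siSIRT1 replicate 1 it was 0.0538. The ornithine carrier SLC25A15, SLC25A29 and SLC25A45 were not called.

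Cofactor, nucleotide and iron carriers numbered 11, with 2 rises and 1 fall. SLC25A51, which imports NAD into mitochondria (GRCh37 chromosome 9, 37887601 to 37904124, minus strand), had 3.67 and 3.36 FPKM in Control against 6.33 and 6.19 FPKM in siSIRT1 (log2 fold change 0.69, standard error 0.11, adjusted p 0.00189). SLC25A37 (mitoferrin 1, an iron importer) was at 19.01 and 20.25 FPKM in Control against 13.15 and 12.04 FPKM in siSIRT1 and fell (log2 fold change -0.60, standard error 0.08, adjusted p 0.000888). Its relative SLC25A28 (mitoferrin 2) was at 15.59 and 16.09 FPKM in Control against 20.92 and 17.10 FPKM in siSIRT1 and was not called (adjusted p 0.0913). The glutathione carrier SLC25A39 was at 74.27 and 75.08 FPKM in Control against 71.05 and 68.72 FPKM in siSIRT1 and was not called, and neither were SLC25A17, SLC25A26, SLC25A32, SLC25A33, SLC25A36 and SLC25A40, with log2 fold changes of -0.06 to 0.20.

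Of 5 members placed with the carriers of di- and tricarboxylates, SLC25A10 and SLC25A35 fell and SLC25A1 was called higher. The citrate carrier SLC25A1 was at 83.58 and 84.55 FPKM in Control against 96.37 and 96.25 FPKM in siSIRT1, a difference of 0.19 (adjusted p 0.0250) that had an adjusted p of 0.216 under median-of-ratios scaling, 0.229 without Control replicate 1 and 0.193 without Control replicate 2. The dicarboxylate carrier SLC25A10 fell from 31.7 ± 0.382 to 27.2 ± 0.0212 FPKM (adjusted p 0.0300, and 0.216 and 0.168 without Control replicates 1 and 2). Another gene model on the same strand overlaps 62.9% of the SLC25A10 transcript. SLC25A35 fell from 30.8 ± 0.566 to 24.3 ± 0.431 FPKM, a log2 change of -0.33, and its adjusted p was 0.0684 without Control replicate 2. The oxoglutarate carrier SLC25A11 and SLC25A34 were not called. Of the orphan and uncoupling-type members, SLC25A46, an outer membrane protein of mitochondrial fission and fusion, was called higher (log2 fold change 0.44, adjusted p 0.0361), and lost the call under median-of-ratios scaling (adjusted p 0.0599) and without Control replicate 1 (0.22), Control replicate 2 (0.0511) or siSIRT1 replicate 2 (0.141). SLC25A14, SLC25A30 and SLC25A43 were not called.

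An extended E-box, TCACGTGA, was found in the promoters of 3 members, all of the SLC25 family, which is 2.24% of the members' promoters against 1.59% of all promoters of this length. These are SLC25A51 and SLC25A38, which rose, and SLC25A36, which was not called (log2 fold change -0.03). The promoters of the genes that rose are shown with the motif in capitals (RefSeq, GRCh38.p14). That of SLC25A51 is at chr9:37904078-37904377 on the minus strand and that of SLC25A38 at chr3:39383120-39383419 on the plus strand.
SLC25A51 promoter: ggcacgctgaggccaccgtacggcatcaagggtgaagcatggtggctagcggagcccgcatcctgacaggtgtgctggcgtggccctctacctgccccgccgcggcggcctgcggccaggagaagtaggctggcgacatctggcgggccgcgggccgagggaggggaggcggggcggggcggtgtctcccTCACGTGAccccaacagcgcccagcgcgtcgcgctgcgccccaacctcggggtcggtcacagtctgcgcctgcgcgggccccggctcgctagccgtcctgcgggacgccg
SLC25A38 promoter: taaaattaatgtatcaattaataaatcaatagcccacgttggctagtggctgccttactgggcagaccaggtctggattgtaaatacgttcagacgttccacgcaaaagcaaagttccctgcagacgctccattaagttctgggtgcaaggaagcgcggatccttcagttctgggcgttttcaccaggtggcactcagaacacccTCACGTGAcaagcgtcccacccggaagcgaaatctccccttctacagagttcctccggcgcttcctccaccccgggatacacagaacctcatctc
A match is a description of the letters in the window and not of a bound factor.

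Vitamin, nucleoside and nucleobase carriers numbered 14, of which 3 rose (21.4%), 4 fell (28.6%) and 7 were not called. Over all tested genes 24.0% rose and 13.1% fell. The rises were fewer without either Control library, as they were over all tested genes. The equilibrative nucleoside carriers of the SLC29 family split by member. SLC29A1 (ENT1, GRCh37 chromosome 6, 44191332 to 44201879, plus strand) had 372.27 and 366.68 FPKM in Control against 237.51 and 219.98 FPKM in siSIRT1 and fell by 38.1% (log2 fold change -0.69, standard error 0.06, adjusted p 0.000109). SLC29A2 (ENT2) fell from 39.1 ± 0.12 to 32.0 ± 1.85 FPKM, a log2 change of -0.28, with adjusted p-values of 0.0946 and 0.0892 without Control replicates 1 and 2. SLC29A4, which carries monoamines, fell from 40.1 ± 1.27 to 29.7 ± 1.45 FPKM, a log2 change of -0.42. The lysosomal SLC29A3 (ENT3) was at 4.40 and 4.35 FPKM in Control against 7.25 and 7.15 FPKM in siSIRT1 and rose (log2 fold change 0.61, standard error 0.10, adjusted p 0.00244). The concentrative nucleoside carrier SLC28A2 was at 2.10 and 3 FPKM in Control against 2.51 and 1.71 FPKM in siSIRT1 and was not called.

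SLC46A3, a lysosomal member of the folate carrier family, was at 6.19 and 7.33 FPKM in Control against 3.65 and 3.78 FPKM in siSIRT1 and fell (log2 fold change -0.72, standard error 0.12, adjusted p 0.00214). The plasma membrane folate carriers SLC19A1 and SLC46A1 were not called, with log2 fold changes of -0.00113 and -0.02. SLC5A6, which takes up biotin and pantothenate, rose from 14 ± 1.22 to 18.8 ± 0.566 FPKM (adjusted p 0.00720, and 0.0839 without Control replicate 2). Of the riboflavin carriers, SLC52A3 rose from 4.84 ± 0.0566 to 6.96 ± 0.389 FPKM, with adjusted p-values of 0.0747 and 0.0622 without Control replicates 1 and 2, while SLC52A2, the most abundant, was at 63.20 and 58.96 FPKM in Control against 71.17 and 67.02 FPKM in siSIRT1 with an adjusted p of 0.0653, and SLC52A1 was not called. The thiamine carrier SLC19A2 and the ascorbate carrier SLC23A2 were not called.

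Each of the 5 carboxylate members belongs to the SLC16 family, and 2 fell (40%) and 3 were not called, where 13.1% of all tested genes fell. SLC16A13 was at 34.26 and 33.16 FPKM in Control against 21.64 and 21.63 FPKM in siSIRT1 (log2 fold change -0.62, standard error 0.07, adjusted p 0.000262), and SLC16A5 fell from 32.2 ± 0.976 to 22.1 ± 0.651 FPKM, a log2 change of -0.52. SLC16A1 (MCT1), the widespread lactate and pyruvate carrier, was at 20.55 and 21.09 FPKM in Control against 19.43 and 22.62 FPKM in siSIRT1 and was not called (log2 fold change 0.01, adjusted p 0.942). SLC16A4 was not called.

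Nucleotide sugar carriers of the Golgi and the acetyl-CoA carrier of the endoplasmic reticulum made a group of 6. In it 1 rose (16.7%) and 3 fell (50%), where 24.0% of all tested genes rose and 13.1% fell. Control and siSIRT1 values did not overlap in any of the 6, as in 75.3% of the members and 69.0% of all tested genes. SLC35A4 (GRCh37 chromosome 5, 139944413 to 139948685, plus strand) had 31.05 and 30.20 FPKM in Control against 52.46 and 48.38 FPKM in siSIRT1 and rose (log2 fold change 0.70, standard error 0.07, adjusted p 0.000153). SLC35A5 was at 9.03 and 8.65 FPKM in Control against 5.67 and 5.15 FPKM in siSIRT1 and fell (log2 fold change -0.62, standard error 0.10, adjusted p 0.00215). SLC35A2, the UDP-galactose carrier, was at 49.57 and 44.18 FPKM in Control against 37.94 and 40.62 FPKM in siSIRT1 (log2 fold change -0.25, standard error 0.08, adjusted p 0.0322), and its call was lost without Control replicate 1 (adjusted p 0.308) or siSIRT1 replicate 1 (0.11). The acetyl-CoA carrier SLC33A1 fell from 16.4 ± 0.233 to 11.3 ± 2.48 FPKM, a log2 change of -0.51 (adjusted p 0.0144, and 0.0883 with no filter on low values). Another gene model on the same strand overlaps 22.8% of the SLC33A1 transcript. The CMP-sialic acid carrier SLC35A1 was at 7.15 and 7.58 FPKM in Control against 6.10 and 5.38 FPKM in siSIRT1 with an adjusted p of 0.0520, and the UDP-N-acetylglucosamine carrier SLC35A3 had an adjusted p of 0.123.

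Of 13 carriers of lipids, choline and organic ions 3 rose (23.1%), 3 fell (23.1%) and 7 were not called. Over all tested genes 24.0% rose and 13.1% fell. The rises were fewer without either Control library, as they were over all tested genes. The fatty acid transport proteins went both ways, with SLC27A1 (FATP1, GRCh37 chromosome 19, 17581333 to 17616977, plus strand) showing 16.38 and 15.97 FPKM in Control against 7.27 and 6.55 FPKM in siSIRT1, a log2 fold change of -1.12 (standard error 0.09, adjusted p 7.11e-05). SLC27A4 (FATP4) rose from 15.3 ± 0.276 to 19.7 ± 0.177 FPKM, a log2 change of 0.34, with adjusted p-values of 0.051 and 0.0744 without Control replicates 1 and 2. SLC27A5, an enzyme of bile acid conjugation in liver, was at 2.00 and 1.76 FPKM in Control against 3.09 and 3.05 FPKM in siSIRT1 (log2 fold change 0.50, standard error 0.13, adjusted p 0.0148, and 0.112 without Control replicate 2), and it passed the limit through siSIRT1. SLC22A31 was at 3.24 and 3.78 FPKM in Control against 1.11 and 1.46 FPKM in siSIRT1 and fell (log2 fold change -0.98, standard error 0.14, adjusted p 0.00106), on about 44 and 53 reads in Control against 15 and 20 reads in siSIRT1, and it passed the limit through Control. SLC44A4, of the choline transporter-like family, fell from 7.28 ± 0.184 to 4.67 ± 0.00707 FPKM. SLC10A3 was at 38.47 and 35.86 FPKM in Control against 43.22 and 42.63 FPKM in siSIRT1 (log2 fold change 0.20, standard error 0.07, adjusted p 0.0396), and the call was lost under median-of-ratios scaling (adjusted p 0.233) and without any 1 of the 4 libraries (0.0552 to 0.341). SLC44A1, SLC44A2, SLC47A1, SLC22A5, SLC22A17, SLC22A23 and SLC27A3 were not called.

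SLC17A5 (sialin), which exports sialic acid from the lysosome (GRCh37 chromosome 6, 74303102 to 74363715, minus strand), had 10.81 and 10.48 FPKM in Control against 18.04 and 18.29 FPKM in siSIRT1 and rose (log2 fold change 0.72, standard error 0.08, adjusted p 0.000300). The urea carrier SLC14A2 was at 2.54 and 1.94 FPKM in Control against 2.09 and 2.62 FPKM in siSIRT1 and was not called.

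**Figure D5:**
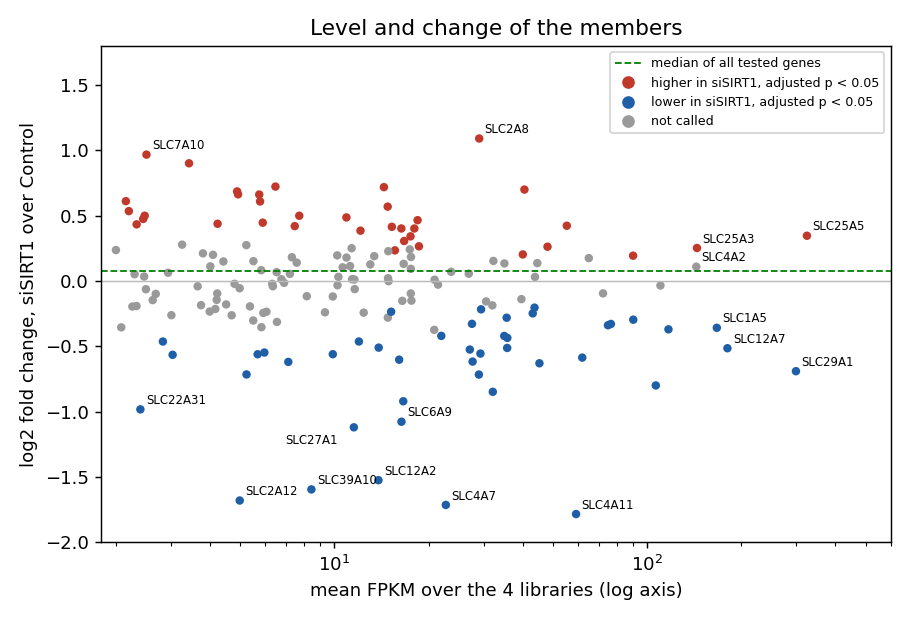
Log2 fold change of each member, siSIRT1 over Control, against its mean FPKM over the 4 libraries (log axis), in red for called higher, blue for called lower and grey for not called, with the median of all tested genes as a dashed line. Called rises and falls occur from 2 FPKM upwards, and all 5 falls past -1.5 have a mean under 100 FPKM.

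The longest members had the lowest median. Of the 43 members whose canonical transcript (GENCODE release 44 on GRCh37) is longer than 5000 bases, 5 rose and 16 fell, with a median log2 fold change of -0.24, where 13.4% of all tested genes of this length rose and 14.5% fell. In the 23 members of up to 2000 bases, 6 rose and 7 fell, with a median of -0.04, where 35.9% of all such genes rose and 11.4% fell. In the 100 between these lengths 25 rose and 21 fell, with a median of 0.07, where 23.9% of all such genes rose and 13.1% fell. Over all tested genes the medians were 0.16, 0.08 and 0.01 from the shortest to the longest class. With each library's trend on length removed, 32 members were called higher and 57 lower, and the part of length in the single results was otherwise not tested.

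The seed of the siRNA pairs with CCTTTGC in a transcript. This heptamer was present in the 3' UTR of 32 of 165 members with an annotated 3' UTR, of which 8 rose and 9 fell, with a median log2 fold change of -0.02. The 133 members without it had 27 rises, 35 falls and a median of -0.03. Sites of the 3 largest falls and the 2 largest rises among the 32 are shown, with the heptamer in capitals. They start at bases 2492 of the 3574-base 3' UTR, 251 of the 3046-base 3' UTR, 5044 of the 7701-base 3' UTR, 101 of the 1066-base 3' UTR and 320 of the 1698-base 3' UTR, in the order printed.
SLC2A12: atgtaagttagCCTTTGCtttc
SLC12A2: agagtagttttCCTTTGCtact
SLC9A7: aaggttgtggtCCTTTGCtatc
SLC37A1: agagtgacctcCCTTTGCcttt
SLC17A5: acctcctgataCCTTTGCttaa
Among all tested genes the median was 0.06 with the heptamer and 0.08 without it, with 21.1% higher and 13.4% lower with it and 24.8% and 13% without it.

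Promoter windows were at hand for 134 of the 166 members. The GC box GGGCGG was present in 71.6% of them, against 64.4% of all promoters of this length, and the E-box CACGTG, which also lies inside the extended E-box, in 11.2% against 9.37%. The antioxidant response element TGACNNNGC was present in 17.2% against 14.6%, and the forkhead motif GTAAACA in 2.24% against 2.43%. The amino acid response core TGATGCAA was in 0 of the 134, where 0.573% of all promoters hold it. The motifs were searched on both strands.

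Exons of another protein-coding gene overlap the canonical transcript of 34 members, in 19 of them over more than 10% of the transcript, and the values of these genes may hold reads of the neighbor. Transporter genes outside the members were read from the same fit. Of 25 tested SLC genes with another subfamily letter or the prefix SLCO 3 rose and 4 fell, of 28 ABC transporters 4 rose and 7 fell, of 25 P-type ATPases 4 rose and 4 fell, and of 14 MFSD genes 1 rose and 2 fell. The called shares were 28%, 39.3%, 32% and 21.4%, where 37.1% of all tested genes were called (24.0% higher and 13.1% lower). The median log2 fold changes of these lists were -0.01, 0.01, 0.05 and 0.11. Among the P-type ATPases, ATP1B1, the beta subunit of the sodium pump whose gradient drives the sodium-coupled carriers above, was at 78.96 and 82.43 FPKM in Control against 49.32 and 51.81 FPKM in siSIRT1 (log2 fold change -0.66, standard error 0.06, adjusted p 0.000123).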

How the data were processed

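Total RNA of 2 Control and 2 siSIRT1 PANC-1 samples was sequenced, and the deposited tables hold FPKM values that the authors computed for 16878 genes per library. The submitters' processing notes name Bowtie2, HISAT, RSEM and ChIPseeker. Their versions and roles, the genome build and the use of strand are not given in the sources used here. Read counts were not used here, and depth was estimated from the step size of FPKM values in single-exon genes, at 8700000 to 9120000 reads per library. These depths limit the precision of genes near 2 FPKM, whose values rest on few reads.

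The 12191 genes averaging 1 FPKM or more were tested on log2(FPKM + 1) with limma 3.58.1 (R 4.3.3, eBayes with a mean-variance trend), two-sided, siSIRT1 against Control, at a Benjamini-Hochberg adjusted p of 0.05. The fit was tested on simulated data. Alternatives were pseudocount 0.1, no filter, quantile, median-of-ratios and upper-quartile scaling, removal of trends on length or GC content, a replicate block, eBayes without the trend, and each library left out. The members and the gene lists were chosen with earlier results of these data known. Full statistics were given to SIRT1 and to the 15 largest called rises and 15 largest called falls among members whose groups did not overlap. They also went to the 10 members with the highest mean. In each substrate group they went to the highest member and the largest called rise and fall. Other members are given by shorter statistics. A few members are not reported here by name, and counts and medians include them. Positions and lengths are those of GENCODE 44 canonical transcripts on GRCh37, and promoters are from RefSeq (GRCh38.p14). Of the 16878 gene identifiers, 16846 matched the RefSeq gene table.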

Additional observations from a re-analysis of the deposited data

How the results depend on the processing

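Each of the 80 called members kept its sign under all alternatives, 56 stayed under 0.05 in every alternative other than leaving out a library, and 43 (14 higher, 29 lower) did so in all. Called members numbered 60 with no filter on low values, 71 without the variance trend, 79 under median-of-ratios scaling, 83 under quantile normalization and 89 with length adjustment. Without 1 library they numbered 55 to 81, with 20 to 34 higher and 34 to 47 lower, and the rises were fewest without Control replicate 1 (20) and Control replicate 2 (21). Over all tested genes these fits called 2691 to 4608 genes, 1721 to 2874 higher and 970 to 1734 lower. The lower calls over all genes went from 1591 to 2389 with length adjustment. The median of all genes was 0.07, and 0.00 to 0.02 under the scalings and adjustments. The called P-type ATPases went from 8 to 4 with no filter and to 5 under quantile and upper-quartile scaling, and to 3 to 10 without 1 library. The SLC genes of other letters went from 7 to 11 with length adjustment, and to 5 to 8 without 1 library. ABC transporters numbered 8 to 12 and MFSD genes 2 to 3 without 1 library. With the replicate block 89 members (40 higher, 49 lower) and 5393 genes were called, including all 80 members called without it, and the called MFSD genes went from 3 to 5. Across genes, the deviations of Control replicate 1 and siSIRT1 replicate 1 from their group means were correlated at 0.123. In groups of 2 the deviations of replicate 2 mirror those of replicate 1 and add nothing. The labels say nothing of what a number shares. Adjustments for length and GC content, and all alternatives for the other transporter lists, were chosen after seeing the data. Depth limits the members near 2 FPKM most. The causes of these shifts were not tested.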
